A study of Homo sapiens with 16 samples.

Results

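The data described here were 4 of the 16 RNA-seq libraries of the series, 2 of Jurkat cells with USP7 shRNA-4057 and 2 of Jurkat cells with a scrambled control, chosen by the treatment given in the sample labels. The series measured how partial loss of USP7 alters transcription in T-lineage acute lymphoblastic leukemia (T-ALL), and it held 8 groups of 2 libraries: Jurkat and HSB-2 cells, each as untransduced wild-type, scrambled, shRNA-4057 and shRNA-4058. Jurkat is an established human T-ALL line with aberrantly active TAL1, labelled TAL1+ in all its groups. A short hairpin RNA (shRNA) is expressed in the cell and processed into a small RNA that destroys the matching transcript. The hairpin was delivered by lentivirus, and transduced T-ALL cells were kept by sorting for GFP or by puromycin, per the study's methods. The scrambled control is called an siRNA in the sample labels and an shRNA in the design of the series. The wild-type cells carried no virus, and the labels do not give the time of harvest or say whether the 2 libraries of a group came from separate transductions, so p-values measure the spread between these libraries, which may be technical. The question addressed was what the hairpin shRNA-4057 did to transcription in Jurkat cells relative to scrambled.

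USP7 is a deubiquitylating enzyme: it removes ubiquitin from proteins such as MDM2, DNMT1 and Polycomb subunits and so affects how long they last. E proteins, among them E2A (encoded by TCF3) and HEB (TCF12), are basic helix-loop-helix transcription factors that bind E-box motifs and activate genes of thymocyte development, including the recombinase and the pre-T-cell receptor. TAL1 and the ID proteins pair with E proteins and reduce their activity, and ectopic TAL1 defines a large subgroup of T-ALL.

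The 4 libraries held 90436343 to 102265303 counts. Levels are given in CPM, counts scaled to a common library size with normalization by the trimmed mean of M values (TMM), and the floor, set at 3 counts as the limit left by a count of 0, lay between 0.0264 and 0.0325 CPM. Such floors cover counting error only. The 10 most abundant genes took 14.94% and 17.04% of the counts in the scrambled libraries and 9.432% and 9.195% with shRNA-4057, and the part of this difference in the results was not tested. All 10 T-lineage markers on the list of markers were above 1 CPM in each of the 4 libraries. Of the B-lineage and myeloid markers 1 each exceeded that level, CD79A and AIF1, while the defining genes PAX5, MPO, LYZ and ELANE stayed at or under 0.085 CPM. No erythroid marker reached 1 CPM.

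USP7 was examined first. USP7 (ENSG00000187555.10, chromosome 16, 8985954 to 9069185, minus strand of GRCh37) was at 384 and 387 CPM in the scrambled libraries and at 140.0 and 145 CPM with shRNA-4057. The groups lay far apart, and 37% of the scrambled level remained. The log2 fold change was -1.43 (SE 0.035, edgeR adjusted p 9.0e-20). This p, and every edgeR adjusted p given here, comes from the quasi-likelihood test with Benjamini-Hochberg adjustment over all genes. Wild-type libraries held 396 and 386 CPM, close to scrambled, and against them the log2 fold change was -1.45. With the other hairpin, shRNA-4058, USP7 was at 244 and 242 CPM, so shRNA-4057 gave the deeper reduction (-0.77 as a log2 difference, edgeR adjusted p 4.5e-14). Whether less RNA of a gene came from fewer cells expressing it or from less RNA per cell cannot be told apart in these bulk samples.

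Of 23063 genes tested, 11527 (50.0%) were called at an adjusted p under 0.05 in edgeR, 5231 higher (22.7%) and 6296 lower (27.3%) with shRNA-4057. The median log2 fold change over all genes tested was 0. At least a 2-fold change was called for 2839 genes (12.3%), of which 1763 rose (7.64%) and 1076 fell (4.67%). With an offset for the GC content and length of transcripts the balance turned, to 6913 higher and 5502 lower, so the split by direction depends on this offset. With the size factors of DESeq2 in edgeR it was 5128 higher and 6407 lower. Rises of at least 2-fold outnumbered falls with the offset too, 2422 against 889. Protein-coding genes leaned lower, with 3423 called higher and 5341 lower of 14164 and a median of -0.08, while long noncoding RNAs leaned higher, with 837 called higher and 453 lower of 4146 and a median of 0.14. Against wild-type in place of scrambled, 8455 genes were called (36.7%), 15.4% higher and 21.2% lower, and 1429 of them by at least 2-fold (6.20%), of which 3.37% of all genes rose and 2.82% fell. Scrambled cells themselves differed from wild-type in 5964 genes (25.9%), 14.8% higher and 11.0% lower, and by at least 2-fold in 2.53%. For this reason values against both controls are given side by side below for many genes and lists. These comparisons share the shRNA-4057 or the scrambled libraries. Unless another comparison is named, a value is against scrambled, and the value against wild-type can differ. The lists below hold mostly protein-coding genes, while the shares set beside them are of all genes tested. Against scrambled, protein-coding genes were called lower more often than the 27.3% of all genes.

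**Figure D1:**
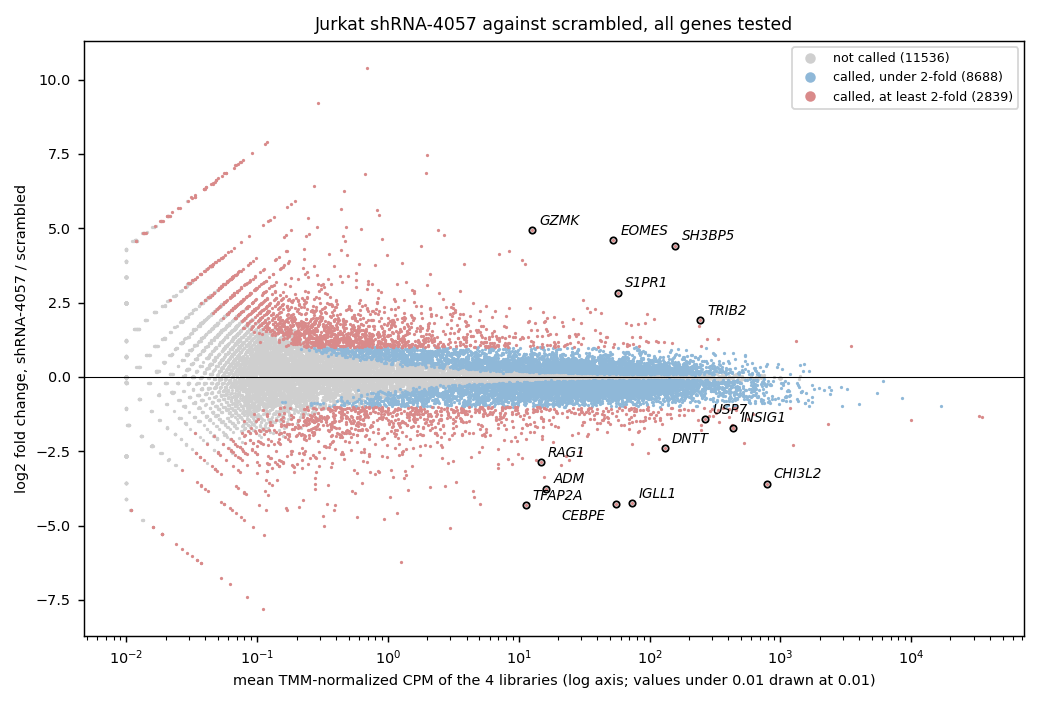
Log2 fold change of shRNA-4057 over scrambled (vertical axis) against the mean level of the 4 libraries in TMM-normalized CPM (horizontal log axis) for each of the 23063 genes tested. Grey points were not called (11536), blue points were called under 2-fold (8688) and red points were called with at least 2-fold (2839); named genes are circled, with EOMES, GZMK and SH3BP5 at the top and IGLL1, CEBPE and TFAP2A at the bottom.

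All 4 E-protein target genes followed here fell with shRNA-4057, where 27.3% of all genes tested were called lower. They were RAG1 and RAG2, which encode the recombinase of receptor gene assembly, PTCRA, the invariant chain of the pre-T-cell receptor, and CD69, an early activation antigen. The list was put together from genes that the study names, RAG1 and PTCRA as E-protein targets it followed in these cells and RAG2 and CD69 for binding peaks nearby, so its direction is not independent evidence. Its median log2 fold change was -1.77 against scrambled and -1.69 against wild-type, where 4 of 4 were called lower, against 21.2% of all genes. RefSeq promoters (GRCh38.p14) were matched for 3 of the 4 genes and are printed because E proteins bind E-boxes in such regions. Each line is the 250 bases before the annotated start, read along the strand of the gene, with the letters CAGCTG, or CAGATG on either strand (CATCTG on the other), in capitals. The windows lie at chr6:42915803-42916052 (plus strand), chr11:36510103-36510352 (plus strand) and chr11:36598237-36598486 (minus strand).
PTCRA: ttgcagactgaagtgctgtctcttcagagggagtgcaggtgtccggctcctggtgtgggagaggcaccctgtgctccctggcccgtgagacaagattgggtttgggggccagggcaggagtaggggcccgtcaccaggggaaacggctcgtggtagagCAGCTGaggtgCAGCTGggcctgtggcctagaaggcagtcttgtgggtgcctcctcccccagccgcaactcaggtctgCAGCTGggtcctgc
RAG1: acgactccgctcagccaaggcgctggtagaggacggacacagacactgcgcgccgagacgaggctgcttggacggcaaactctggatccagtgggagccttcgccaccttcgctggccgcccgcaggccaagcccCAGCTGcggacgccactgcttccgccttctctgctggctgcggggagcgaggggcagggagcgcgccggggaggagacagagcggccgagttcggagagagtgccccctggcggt
RAG2: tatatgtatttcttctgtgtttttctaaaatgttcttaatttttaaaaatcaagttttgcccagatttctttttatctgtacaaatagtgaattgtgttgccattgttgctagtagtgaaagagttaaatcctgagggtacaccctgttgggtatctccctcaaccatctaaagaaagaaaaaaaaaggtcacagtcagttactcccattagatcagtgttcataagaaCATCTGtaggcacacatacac

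The PTCRA window held 3 copies of CAGCTG, which 0.0997% of the 35116 RefSeq promoter windows of that length did. RAG1 held 1 copy, as at least 1 was found in 14.0% of windows, and RAG2 held 1 CAGATG, found at least once in 12.2%. CAGCTG reads the same on both strands, and the 2 motifs do not overlap here. These matches describe letters and not bound sites, and windows before other starts of these genes were not searched.

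RAG1 (ENSG00000166349.5, chromosome 11, 36531922 to 36614706, plus strand) was at 26.2 and 25.5 CPM in scrambled and 3.58 and 3.53 CPM with shRNA-4057, which left 13.7% of its level. It was the most reduced of the 4, with a log2 fold change of -2.86 (SE 0.1, edgeR adjusted p 1.7e-16). In wild-type cells it was at 21.3 and 20.7 CPM, and the log2 fold change against them was -2.56. RAG2 (ENSG00000175097.3, chromosome 11, 36597124 to 36619829, minus strand) was at 9.81 and 10.4 CPM in scrambled and 4.59 and 5.11 CPM with shRNA-4057, a smaller reduction that also set the groups apart (log2 fold change -1.06, SE 0.12). The exons of the pair overlap in antisense and the strand setting of the counting is not given in the sources used here, so their reads cannot be told apart with certainty. PTCRA (ENSG00000171611.5, chromosome 6, 42883727 to 42893576, plus strand) was low throughout, at 1.26 and 1.08 CPM in scrambled and 0.299 and 0.243 CPM with shRNA-4057, from 116 and 102 counts against 34 and 25. Its log2 fold change was -2.10 (SE 0.33, edgeR adjusted p 1.5e-05). CD69 (ENSG00000110848.4, chromosome 12, 9905082 to 9913497, minus strand) was at 58.5 and 50.7 CPM in scrambled, 19.5 and 21.0 CPM with shRNA-4057 and 26.9 and 26.0 CPM in wild-type cells. Its fall therefore depended on the control: -1.43 on the log2 scale against scrambled but -0.38 against wild-type, both called (edgeR adjusted p 6.1e-15 and 4.5e-05), and scrambled lay above wild-type by 1.05.

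**Figure D2:**
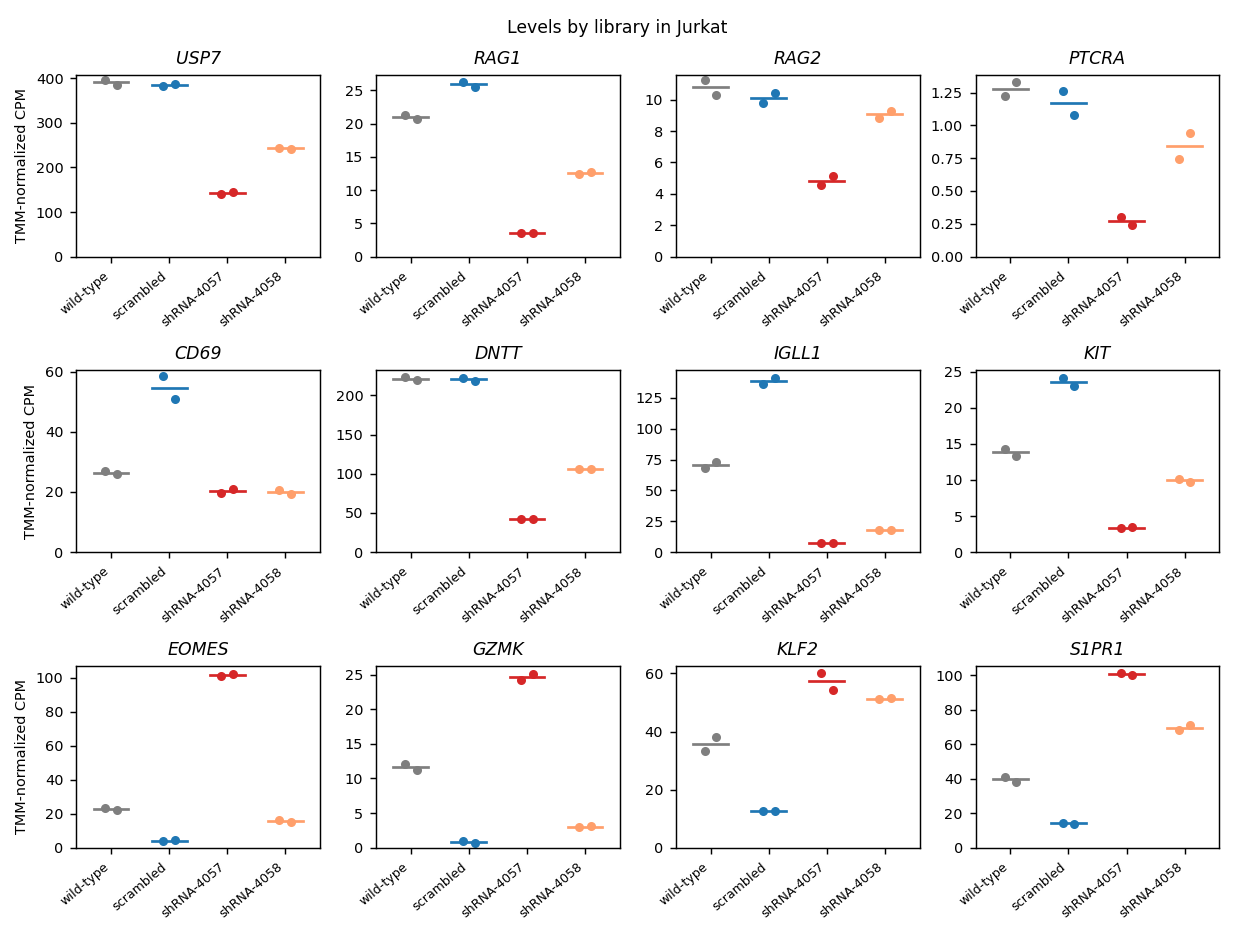
TMM-normalized CPM (vertical axes from 0, own scale for each gene) of 12 genes in the 8 Jurkat libraries; points are libraries and short lines the mean of 2. The shRNA-4057 points lie below both scrambled points for USP7, the 4 E-protein targets, DNTT, IGLL1 and KIT, and above them for EOMES, GZMK, KLF2 and S1PR1.

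All 5 CD1 genes, which encode lipid-presenting surface proteins typical of cortical thymocytes, were called lower with shRNA-4057, with a median of -0.70 against scrambled, where 27.3% of all genes were called lower, and -0.83 against wild-type, where 21.2% were. CD1B fell most, from 40.7 and 39.8 CPM in scrambled to 19.7 and 18.9 CPM (log2 fold change -1.06, SE 0.074). CD1D was at 34.4 and 35.5 CPM in scrambled and 18.2 and 20.0 CPM with the hairpin (-0.87 on the log2 scale). CD1E went from 269.9 and 264 CPM to 163 and 166 CPM (-0.70). The log2 fold changes of CD1C and CD1A were smaller, -0.61 and -0.35, and CD1A was not called under the GC and length offset (-0.07, edgeR adjusted p 0.24). The CD1 genes are similar in sequence, so reads could have been shared among them.

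Among E proteins, ID proteins and the TAL1 complex, 9 of 19 genes tested were called higher and 8 lower (median -0.07), against 22.7% and 27.3% of all genes. Against wild-type 5 were called higher and 8 lower, against 15.4% and 21.2%. The differences in the E-protein genes were small. TCF3 was at 349 and 358 CPM in scrambled and 351 and 321 CPM with shRNA-4057, overlapping levels that were not called (-0.07, edgeR adjusted p 0.21). TCF12 fell by 0.20 on the log2 scale and TCF4, which encodes the E protein E2-2, by 0.42. Of their inhibitors, ID2 rose most, from 1.75 and 1.58 CPM to 5.98 and 6.27 CPM, with a log2 fold change of 1.88 (SE 0.1, edgeR adjusted p 3.9e-13) and 1.18 against wild-type. ID3 rose by 0.37 and ID1 by 0.39 against scrambled, but against wild-type they were not called (0.03 and -0.12).

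TAL1 was at 287 and 293 CPM in scrambled, 340.1 and 338 CPM with shRNA-4057 and 367 and 371 CPM in wild-type. It thus rose by 0.23 against scrambled and fell by 0.12 against wild-type, both called (edgeR adjusted p 3.3e-06 and 0.005). GATA3, another member of the complex, was likewise called with opposite directions, 0.10 against scrambled and -0.11 against wild-type. Its call against scrambled was marginal (edgeR adjusted p 0.0499). The call was lost with the direction kept in 6 of 14 alternatives, and the direction also turned against both controls together. MYB, a proto-oncogene expressed in immature blood cells, fell from 526 and 532 CPM to 272 and 275 CPM (-0.95, SE 0.03), and RUNX1 by 0.45 on the log2 scale. CBFA2T3, a corepressor, fell by 0.83, and LMO1, a LIM-only bridge between these factors, from 10.7 and 10.7 CPM to 3.24 and 3.24 CPM (-1.72). LMO2, the paralog of LMO1, was near the floor in scrambled (6 and 6 counts) and rose to 40 and 45 counts. The fitted log2 fold change was 2.59 against scrambled and 4.67 against wild-type. Wild-type libraries were not above the floor, at 0.0 and 0.0333 CPM, so the size of the latter is uncertain. LYL1, a relative of TAL1, went from 1.30 and 1.65 CPM to 2.39 and 3.0 CPM (0.86), and LDB1 and EP300 rose by 0.46 and 0.32. HDAC1 and TRIM27 fell by 0.19 and 0.17, neither of which was called against wild-type (-0.06 and -0.04), and the log2 fold change of HDAC1 was 0.00076 under the GC and length offset. SIN3A was not called (-0.08, edgeR adjusted p 0.068).

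Most genes on the list of immature lymphoid cells were called lower with shRNA-4057. Of 15 genes tested for the surrogate light chain and lymphoid progenitors, 11 were called lower, 9 of them by at least 2-fold, and 1 higher, where 27.3% of all genes were called lower and 4.67% by at least 2-fold. The median was -1.69 against scrambled and -0.98 against wild-type, where 9 were called lower and 1 higher. The shares of all genes against wild-type were 21.2% and 15.4%. RAG1 and RAG2 are also on this list. IGLL1, a component of the surrogate light chain, was at 136 and 141 CPM in scrambled and 7.57 and 7.10 CPM with shRNA-4057, or 5.29% of the scrambled level (-4.24, SE 0.065, edgeR adjusted p 2.5e-23). Its wild-type level was 68.4 and 72.8 CPM, between the 2 groups, and the log2 fold change against wild-type was -3.27. IGLL1 resembles other lambda-locus genes in sequence, so its counts are uncertain.

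DNTT and KIT, on the same list, were chosen for description after their values were seen. DNTT encodes the terminal transferase that adds bases at receptor gene junctions, and it went from 222 and 219 CPM in scrambled to 41.7 and 42.7 CPM with shRNA-4057. Wild-type libraries held 223 and 219.9 CPM, so the log2 fold change was -2.39 against either control (SE 0.065, edgeR adjusted p 1.0e-17 against scrambled). KIT, the stem cell factor receptor, went from 24.2 and 23.0 CPM to 3.34 and 3.43 CPM (-2.80). MME, the surface peptidase CD10, was at 8.64 and 8.01 CPM in scrambled and 0.624 and 0.544 CPM with the hairpin (-3.83), and CD34, a stem and progenitor antigen, at 2.81 and 2.51 CPM and 0.141 and 0.243 CPM (-3.80). For both, scrambled lay above wild-type, by 1.98 and 1.69 on the log2 scale, and the log2 fold changes against wild-type were -1.85 and -2.11. BCL11A fell by 0.80 and SOX4, at 1092 CPM in scrambled, by 0.21. HHEX was called higher (0.44). VPREB1 and FLT3 were called lower at low counts, with log2 fold changes of -1.69 and -2.07, but not against wild-type (-0.39 and -0.83). VPREB3, EBF1 and SPI1 were not called.

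CEBPE, a transcription factor of granulocyte differentiation, was among the most reduced genes, at 103 and 107 CPM in scrambled, 5.75 and 5.12 CPM with shRNA-4057 and 42.6 and 45.8 CPM in wild-type cells. Its log2 fold change was -4.27 against scrambled (SE 0.076, edgeR adjusted p 4.1e-22) and -3.02 against wild-type. Of the 7 C/EBP family genes tested, 3 were called lower and 1 higher (median -0.15), against 27.3% and 22.7% of all genes. CEBPB, at 16.6 and 17.0 CPM in scrambled, had a log2 fold change of -0.15 whose call was lost in 10 of 14 alternatives, among them against wild-type (-0.05). DDIT3 rose by 0.61.

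The other genes with the deepest reductions were of mixed function. TFAP2A, a developmental transcription factor, had a log2 fold change of -4.31, from 21.1 and 21.9 CPM in scrambled to 1.29 and 0.864 CPM with shRNA-4057. CHI3L2, a chitinase-like secreted protein, was at 1450 and 1447 CPM in scrambled and 118 and 122 CPM with the hairpin (-3.59, SE 0.038). That is a loss of most of a high level. Its wild-type level was 835 and 853 CPM, and against wild-type it fell by 2.81. EBF3, a transcription factor, and DAAM2, a formin-related protein of WNT signalling, fell by 3.54 and 3.35. MYO5B, an unconventional myosin, GAS2, a cytoskeletal protein, KANK4 and MYL4, a myosin light chain, had log2 fold changes of -4.26, -4.05, -3.70 and -2.91. HAL, histidine ammonia lyase, fell by 3.67 against scrambled but by 0.85 against wild-type, since scrambled exceeded wild-type by 2.82. TEX19 and C16orf74 fell by 3.07 and 2.94. With IGLL1, CEBPE, MME and ADM, these were the 15 genes chosen for the largest reductions. Each was also called lower against wild-type, by 0.85 for HAL at the least and 3.27 for IGLL1 at the most, and each stood higher in scrambled than in wild-type. The ranking used the scrambled libraries, so nothing is read from the latter. CEBPE, ADM, KANK4, HAL, CHI3L2 and MYL4 overlap no other exon in the annotation, and counts of the other 9 may include antisense reads.

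Genes of cytotoxic lymphocytes were more often called higher than lower with shRNA-4057. Of 17 genes tested, 11 were called higher, 10 of them by at least 2-fold, and 2 lower, where 22.7% of all genes were called higher and 7.64% by at least 2-fold. The median was 1.27 against scrambled and 1.08 against wild-type, where 13 were called higher and 1 lower. The shares of all genes against wild-type were 15.4% and 21.2%. EOMES, a T-box factor of effector and memory CD8 T cells, was at 3.82 and 4.55 CPM in scrambled and 101 and 102 CPM with shRNA-4057, a log2 fold change of 4.60 (SE 0.082, edgeR adjusted p 4.0e-22). Wild-type libraries held 23.2 and 22.3 CPM, which left a difference of 2.16. GZMK, a granzyme, went from 0.911 and 0.709 CPM to 24.2 and 25.1 CPM (4.93), but wild-type libraries were at 12.1 and 11.2 CPM, so against them the rise was 1.08. Scrambled lay below wild-type for both, with log2 differences of -2.44 for EOMES and -3.85 for GZMK.

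For other effector genes the values against the controls lay closer together. NKG7, a granule membrane protein, was at 5.51 and 5.69 CPM in scrambled and 26.1 and 24.3 CPM with shRNA-4057 (2.17 against scrambled, 1.73 against wild-type). PRF1, the pore-forming perforin, named after its values were seen, went from 5.92 and 6.0 CPM to 21.0 and 20.4 CPM (1.80 and 1.24). GZMA, another granzyme, was at a mean of 56.4 ± 1.04 CPM (SD, n = 2) in scrambled and 132 ± 1.67 CPM with shRNA-4057 (1.22 and 1.92). SRGN, the granule proteoglycan, rose by 1.57, GZMM by 1.27 and TBX21, the other T-box factor, by 0.79. GZMH rose from 31 and 35 counts to 221 and 160 (2.30), while its neighbour GZMB had 5 and 8 counts with shRNA-4057 and was not called. The genes are related in sequence, and whether reads of the pair were divided was not tested. FASLG and KLRD1 were under the floor in scrambled, with a mean of 0.0106 and 0.0107 CPM, and reached 1.32 and 0.905 CPM. GNLY, at 0.171 CPM in scrambled and 0.0277 CPM with the hairpin, and CTSW (-0.23) were the 2 called lower, and CTSW was called higher against wild-type (0.66). CST7, KLRG1, KLRB1 and GZMB were not called.

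Of 29 genes of lymphocyte trafficking and homing, 14 were called higher and 9 lower, with 10 at least 2-fold higher and 2 at least 2-fold lower (median 0.35). Of all genes 22.7% were called higher and 7.64% by at least 2-fold, and the count of lower calls was near the share of all genes, 27.3%. Against wild-type 12 were called higher and 5 lower (median 0.12), where 15.4% and 21.2% of all genes were. By at least 2-fold these were 7 and 1, against 3.37% and 2.82%. Scrambled itself was at least 2-fold below wild-type for 5 of the genes and above for 0, against 1.69% and 0.837% of all genes. S1PR1, the receptor by which T cells leave lymphoid organs, was at 14.5 and 13.9 CPM in scrambled and 101 and 100.2 CPM with shRNA-4057 (2.83, SE 0.053, edgeR adjusted p 8.0e-22). KLF2, a transcription factor that activates S1PR1, went from 12.6 and 12.7 CPM to 60.3 and 54.4 CPM (2.18). Wild-type levels were in between, 41.1 and 38.0 CPM for S1PR1 and 33.2 and 38.0 CPM for KLF2, and the rises against wild-type were 1.34 and 0.69.

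Several chemokine receptors and integrins moved in the same comparison. CXCR3, a receptor of effector T cells, went from 2.10 and 1.51 CPM to 9.39 and 9.49 CPM (2.38). CCR7, which guides naive cells to lymph nodes, rose by 1.16, CXCR5 by 1.91, ITGB7 by 2.03 and CCR4 by 0.87. CCR8 fell by 2.12, ITGA4 by 1.07, from a mean of 545 CPM to 259 CPM, and CXCR4 by 0.47.

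The remaining genes with the largest rises had other known roles. SH3BP5, a binding partner of the kinase BTK, was at 12.8 and 15.2 CPM in scrambled, 299 and 301 CPM with shRNA-4057 and 80.2 and 84.9 CPM in wild-type. Its log2 fold change was 4.42 (SE 0.056, edgeR adjusted p 5.6e-25) and 1.86 against wild-type, and the log2 difference of scrambled from wild-type was -2.56. PTPRG, a receptor tyrosine phosphatase, rose from 21 and 14 counts to 566 and 558 (4.78). LPAR6, a receptor for lysophosphatidic acid, and NGFR, the low-affinity neurotrophin receptor, had log2 fold changes of 3.79 and 2.89. ZFHX3, a zinc finger and homeobox factor, went from 8.93 and 8.64 CPM to 52.9 and 52.7 CPM (2.59). TC2N, PLEKHG3, IPCEF1, CFTR (a chloride channel), KRT72 (a keratin) and GOLGA7B had log2 fold changes of 4.24, 4.13, 3.94, 3.48, 3.10 and 2.84. Each of the 14 genes described here for the largest rises was called higher against wild-type too, by 1.08 for GZMK at the least and 2.41 for TC2N at the most, and each stood lower in scrambled than in wild-type. As above, the ranking used the scrambled libraries. Of these 14, EOMES, LPAR6, S1PR1 and TC2N have no antisense gene over their exons in the annotation, but TC2N overlaps CATSPERB on its own strand, and counts of the other 10 may include antisense reads.

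T-lineage transcription factors were more often called higher (14 of 25) than lower (7), with a median of 0.21 against scrambled and 0.20 against wild-type. The share called higher among all genes was 22.7%, and the lower calls were near their share of 27.3%. FOXO1, which supports KLF2 and IL7R expression in T cells, rose from 7.04 and 6.56 CPM to 25.4 and 25.2 CPM (1.89, SE 0.069), and IKZF3, the Ikaros family member Aiolos, from 5.10 and 5.16 CPM to 18.9 and 18.7 CPM (1.87). Both rose by 1.01 against wild-type. NFATC2 and RUNX3, a factor of the CD8 lineage, rose by 0.73 and 0.55, and LEF1, at 932 CPM in scrambled, by 0.28. TCF7, its relative, fell by 0.19, TOX by 0.68 and GFI1 by 0.80. ZBTB16, TOX2 and EGR3 were not called. EGR1, induced by receptor signalling, turned with the control: it was at 180.1 and 185 CPM in scrambled, 98.5 and 92.8 CPM with shRNA-4057 and 45.9 and 46.7 CPM in wild-type, which gave -0.93 against scrambled and 1.05 against wild-type, both called (edgeR adjusted p 2.1e-15 and 1.3e-15).

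Of 30 genes of the T-cell receptor complex and its proximal signalling, 17 were called higher and 10 lower (median 0.17), the latter near the 27.3% of all genes and the former above their 22.7%. The CD3 chains were called lower: CD3D went from 404 and 419.5 CPM to 243 and 243 CPM (-0.76), CD3E and CD3G fell by 0.43 and 0.31, and CD247 by 0.10. The kinases LCK and ZAP70 fell by 0.41 and 0.28. SLA, an adaptor that dampens receptor signalling, fell most, by 1.27; it went from 260.2 and 261 CPM to 107 and 109 CPM. Among the genes called higher were the adaptors TRAT1 (1.30) and LAT (1.08), and PTPRC, the surface phosphatase CD45, from a mean of 408 CPM to 660.2 CPM (0.69). Summed over the 10 T-lineage markers, the level was 3350 and 3460 CPM in scrambled, 2820 and 2730 CPM with shRNA-4057 and 3120 and 3220 CPM in wild-type, and 8 of the 10 markers were called lower.

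T-lineage surface molecules were evenly divided against scrambled, 11 of 24 called higher and 11 lower, where 22.7% and 27.3% of all genes were. By at least 2-fold the numbers were 5 and 5, against 7.64% and 4.67% of all genes. Against wild-type 10 were called higher and 8 lower, where 15.4% and 21.2% of all genes were. By at least 2-fold these were 1 and 5, against 3.37% and 2.82%. IL7R, the interleukin-7 receptor chain, fell from 8.91 and 10.3 CPM to 2.29 and 2.68 CPM (-1.95, SE 0.14). CD99, a thymocyte glycoprotein, fell from 628 and 664 CPM to 217 and 208 CPM (-1.6), and CD38, CD4 and CD2 fell by 1.08, 1.0 and 0.34. CD226, an activating receptor, rose from 13.0 and 13.3 CPM to 45.1 and 47.7 CPM (1.82). CD52, a small surface glycoprotein, rose by 1.17, the costimulatory receptor CD28 by 0.72, CD27 by 0.60 and CD44, a marker of mature and memory cells, from a mean of 0.0801 CPM to 0.582 CPM (2.84). CD8A rose against scrambled (1.12) and was not called against wild-type (-0.13).

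NOTCH1 and MYC pathway genes moved both ways, 9 of 24 called higher and 10 lower (median -0.17), against 22.7% and 27.3% of all genes. The receptors NOTCH3 and NOTCH1 fell, NOTCH3 from 134 and 138 CPM to 51.0 and 49.0 CPM (-1.44) and NOTCH1 by 0.53 on the log2 scale. Of their targets, HES4 fell by 1.12 and HEY2 by 0.89, whereas HES1 rose by 0.75, NRARP by 0.59 and CR2 by 1.37, the last of which was not called against wild-type (0.25). TRIB2, a pseudokinase, rose from 103 and 102 CPM to 389 and 385 CPM (1.91, SE 0.032). MYC itself differed by 0.10 against scrambled and was not called against wild-type (-0.05), and MYCN fell by 1.04.

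**Figure D3:**
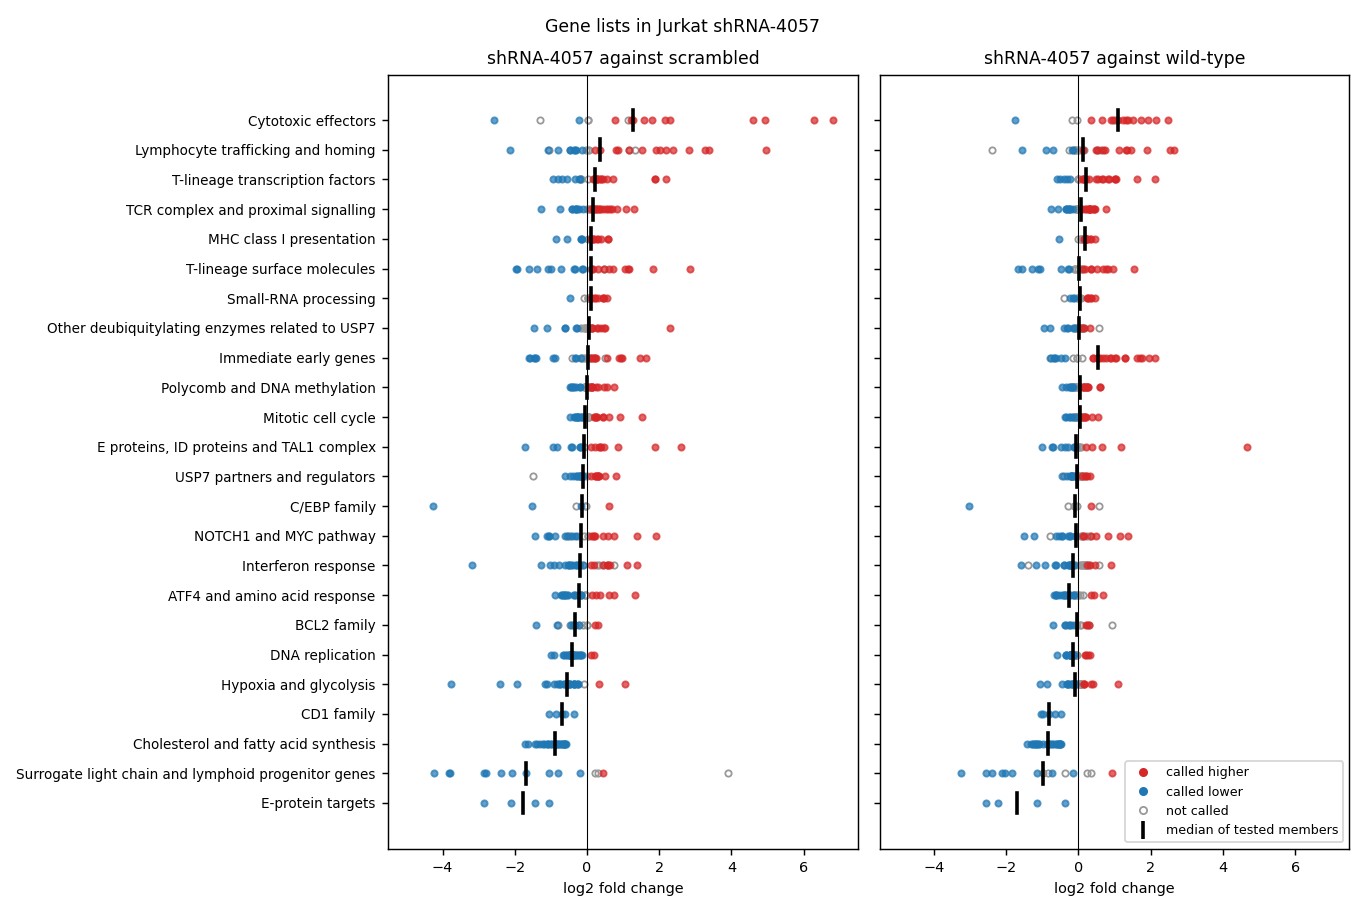
Log2 fold changes of the tested members of 24 gene lists (rows, ordered by the median) with shRNA-4057 against scrambled (left) and against wild-type (right). Each point is a gene, red called higher, blue called lower and open not called; black bars are list medians, and both panels share the shRNA-4057 libraries. Cholesterol and fatty acid genes lie entirely below 0 in both panels, while the hypoxia and glycolysis list has a median of -0.55 on the left and -0.09 on the right.

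Every tested gene of cholesterol and fatty acid synthesis was lower with shRNA-4057. All 27, 10 of them by at least 2-fold, were called lower against scrambled, where 27.3% of all genes were, 4.67% by at least 2-fold. All 27 were also called lower against wild-type, where 21.2% of all genes were. The medians were -0.90 and -0.83. None was called higher under any alternative. INSIG1, the sterol sensor that holds back SREBP, went from 678 and 663 CPM to 206 and 206 CPM (-1.71, SE 0.035, edgeR adjusted p 3.7e-21). The cholesterol enzymes MSMO1, FDFT1 and DHCR7 fell by 1.63, 1.43 and 1.38. FDFT1, squalene synthase, was at 814 and 827 CPM in scrambled and 308 and 300.2 CPM with the hairpin.

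SREBF2, the transcription factor of the pathway, chosen after its values were seen, fell from 362 and 368 CPM to 222 and 214 CPM (-0.74). The fatty acid enzymes SCD, FASN and ACLY fell by 1.23, 0.84 and 0.60, and SREBF1, which governs them, by 0.62. The controls differed for many of these genes too, but by less: the median log2 difference of scrambled from wild-type was 0.10, with 13 genes called higher and 4 lower in scrambled, against 14.8% and 11.0% of all genes.

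For hypoxia and glycolysis the control mattered. Against scrambled, 27 of 30 genes were called lower and 2 higher (median -0.55), where 27.3% of all genes were called lower. Against wild-type 14 were called lower and 6 higher (median -0.09), where the shares of all genes were 21.2% and 15.4%. Scrambled cells stood above wild-type for 26 of the genes, against 14.8% of all genes, and below for 0 (median 0.47). ADM, adrenomedullin, a hypoxia-induced peptide, was at 29.5 and 31.0 CPM in scrambled, 2.14 and 2.32 CPM with shRNA-4057 and 3.92 and 4.26 CPM in wild-type, so its log2 fold change was -3.76 against scrambled and -0.87 against wild-type. CA9, carbonic anhydrase 9, fell by 2.41 against scrambled and was not called against wild-type (-0.28, edgeR adjusted p 0.54). The abundant enzymes ENO1, PGK1 and GAPDH fell by 0.92, 0.83 and 0.53 against scrambled and by 0.17, 0.09 and 0.09 against wild-type. EGLN3, an oxygen-sensing hydroxylase, and ALDOC, an aldolase, fell against both, EGLN3 by 1.94 and 1.07 and ALDOC by 1.15 and 0.46. SLC2A3, a glucose transporter, rose against both (1.05 and 1.10).

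DNA replication genes also depended on the control. Against scrambled 28 of 30 were called lower and 2 higher (median -0.42), none by 2-fold, where 27.3% of all genes were called lower. Against wild-type 18 were called lower and 4 higher (median -0.16), where 21.2% and 15.4% of all genes were. Scrambled was above wild-type for 26 of them (median 0.25), as for 14.8% of all genes. CDT1, a licensing factor, fell from 299 and 304 CPM to 158 and 147 CPM (-0.98 against scrambled, -0.59 against wild-type), and TK1, thymidine kinase, from 54.8 and 54.2 CPM to 30.2 and 28.1 CPM (-0.90 and -0.19). CDC6 and MCM7, parts of the licensing machinery, fell by 0.67 and 0.65. POLA1 and E2F2 were the 2 called higher (0.18 and 0.10).

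**Figure D4:**
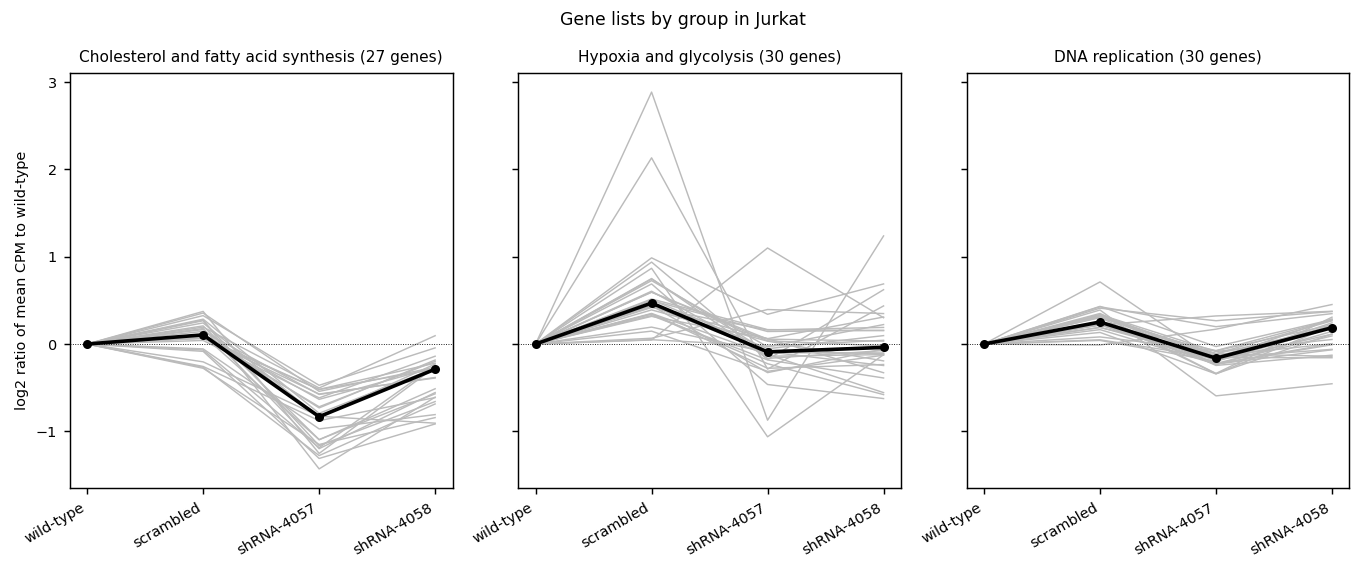
Log2 ratio of a gene's mean CPM (n = 2 libraries) to its mean in Jurkat wild-type (vertical axis) in the 4 Jurkat groups (horizontal axis, in no order of dose or time), for all tested members of 3 lists; grey lines are genes and the black line is the median. The median of the cholesterol and fatty acid list is lowest with shRNA-4057, while the hypoxia and glycolysis list stands highest in scrambled cells.

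Mitotic genes were divided, with 10 of 30 called higher, 11 lower and 9 not called (median -0.05), against 22.7% and 27.3% of all genes. The kinetochore genes CENPE and CENPF were higher (0.90 and 0.60), as was MKI67, chosen after its values were seen (0.44, from 789 and 827 CPM to 1106 and 1092 CPM). The kinases CDK4, CDK1 and AURKA fell by 0.48, 0.35 and 0.27. CCND2, cyclin D2, rose from 8.44 and 8.59 CPM to 25.4 and 23.8 CPM (1.53), and CCND3 fell by 0.33. Against wild-type, CENPE, CDK4 and CDK1 were not called (0.09, -0.09 and -0.15).

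Of the genes listed as partners of USP7 or regulators of its substrates, 10 of 26 were called higher and 12 lower, none by 2-fold (median -0.10), against 22.7% and 27.3% of all genes. RB1, the retinoblastoma protein gene, rose from 275 and 261 CPM to 457 and 486 CPM (0.82 against scrambled, 0.33 against wild-type). USP47 rose by 0.50 against scrambled and was not called against wild-type (0.12). DNMT1, whose protein USP7 stabilizes, fell from 438 and 464 CPM to 329 and 316 CPM (-0.48, with exons that overlap S1PR2), and USP11, a related enzyme, by 0.60. MDM2, a ubiquitin ligase deubiquitylated by USP7 and chosen after its values were seen, was at 162 and 159 CPM and 146 and 152 CPM (-0.10, edgeR adjusted p 0.049), a call lost in 9 of 14 alternatives.

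CDKN1A, the p21 gene, chosen after its values were seen, was low, at 2.28 and 1.97 CPM in scrambled and 1.67 and 1.41 CPM with shRNA-4057 (-0.46), and was not called against wild-type (0.05). In the BCL2 family, 8 of 16 were called lower and 2 higher against scrambled (median -0.34), where 27.3% and 22.7% of all genes were. Against wild-type 6 were called lower and 3 higher (median -0.05), where 21.2% and 15.4% of all genes were. Scrambled stood above wild-type for 9 of the 16 and below for 0 (median 0.21), as for 14.8% and 11.0% of all genes. BCL2, the anti-apoptotic founder, fell from 49.2 and 51.9 CPM to 27.5 and 29.2 CPM (-0.84), BCL2L1 and BAX by 0.45 and 0.38 and BOK by 1.41, while MCL1 and BAK1 rose by 0.23 and 0.29.

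Other deubiquitylating enzymes were called higher for 8, lower for 6 and not for 10 of 24, against 22.7% and 27.3% of all genes. TNFAIP3, the A20 inhibitor of NF-kB, fell from 160.5 and 164 CPM to 57.8 and 58.4 CPM (-1.48), USP44 by 1.11 and USP18 by 0.62. Of 29 Polycomb and DNA methylation genes, 10 were called higher and 8 lower, the latter near the share of all genes and none by 2-fold, led by TET3 (0.75), CBX2 (0.56) and JARID2 (0.47). EZH2, the Polycomb methyltransferase, differed by 0.09 and was not called against wild-type (0.06). Of the small-RNA processing machinery, 9 of 16 genes were called higher and 1 lower, none by 2-fold, where 22.7% and 27.3% of all genes were. Against wild-type the numbers were 6 and 3, against 15.4% and 21.2% of all genes. TNRC6A, DGCR8 and AGO1 rose by 0.56, 0.46 and 0.44, PRKRA fell by 0.46, and DROSHA and XPO5 were not called (-0.08 and 0.02).

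In the ATF4 and amino acid response, 16 of 25 genes were called lower and 6 higher (median -0.23, and -0.26 against wild-type), the latter near the 22.7% of all genes and the former above their 27.3%. The serine and one-carbon enzymes PHGDH, PSAT1, SHMT2 and MTHFD2 fell by 0.56, 0.62, 0.68 and 0.61, ATF3 by 0.89 and VLDLR by 0.71. CHAC1, a glutathione-degrading enzyme, rose from 2.06 and 2.44 CPM to 5.70 and 5.64 CPM (1.33). SLC7A11, the cystine transporter, rose against scrambled (0.75) and was not called against wild-type (-0.06). ATF4 itself was not called (-0.07).

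Immediate early genes were divided against scrambled, 11 called higher and 10 lower of 30 (median 0.02), and mostly higher against wild-type, 19 and 6 (median 0.54). The lower calls were near the shares of all genes in both comparisons, 27.3% and 21.2%, and the higher calls above 22.7% and 15.4%. Scrambled was above wild-type for 22 and below for 1, where 14.8% and 11.0% of all genes were. FOS, chosen after its values were seen, was at 3.55 and 3.05 CPM in scrambled, 9.96 and 8.37 CPM with shRNA-4057 and 2.39 and 2.36 CPM in wild-type (1.48 and 1.95), and JUN rose by 0.97 and 1.29. SPRY2, a feedback inhibitor of receptor signalling, and IER3 fell by 1.6 and 1.58 against scrambled and by 0.69 and 0.69 against wild-type. EGR2 had a log2 fold change of -0.33 against scrambled and 1.62 against wild-type, so that its direction, like that of EGR1, turned with the control.

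Interferon response genes were called lower for 17 and higher for 8 of 32 (median -0.20), the former above the 27.3% of all genes and the latter near their 22.7%. OAS1, an antiviral synthetase, fell from 4.98 and 4.70 CPM to 2.00 and 2.01 CPM (-1.27), IFI6 by 0.91 and TRIM22 by 1.01, and TRIM22 was not called against wild-type (-0.20). MX2 rose from 8.37 and 7.04 CPM to 20.8 and 19.6 CPM (1.39), and OASL by 1.12, a rise not called against wild-type (0.30). Of 17 genes of MHC class I presentation, 9 were called higher and 5 lower, the latter near the 27.3% of all genes. NLRC5, the class I transactivator, rose by 0.58 and TAP2, a peptide transporter subunit, by 0.59. CALR, a chaperone of the endoplasmic reticulum, fell from 909 and 956 CPM to 525 and 503 CPM (-0.86). PSMB10 fell by 0.56 against scrambled and was not called against wild-type (-0.01). B2M and HLA-C were not called, and the HLA genes share near-identical sequence.

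Abundant noncoding RNAs shifted in both directions. RN7SL2, an RNA of the signal recognition particle, was at 42140 and 52360 CPM in scrambled and 19590 and 18420 CPM with shRNA-4057 (-1.31), RN7SK at 20380 and 24470 and 11400 and 11200 CPM (-0.99), and TERC, the telomerase RNA, at 125 and 125 and 46.2 and 44.4 CPM (-1.47). Wild-type cells lay between the groups for these 3, at 25040 and 30300 CPM for RN7SL2. MALAT1, a nuclear long noncoding RNA, rose from 2324 and 2186 CPM to 4497 and 4835 CPM (1.05), and NEAT1 by 0.68. The part of these shifts in other results was not tested.

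Markers of other cell types came down to a few genes. The summed level of the 6 B-lineage markers was 61.7 and 64.9 CPM in scrambled and 22.1 and 22.1 CPM with shRNA-4057, that of the 8 myeloid markers 165 and 180.0 CPM and 105 and 101 CPM, and that of the 7 erythroid markers 0.315 and 0.349 CPM and 0.755 and 0.505 CPM. CD79A, a B-cell receptor component, fell from 61.1 and 64.3 CPM to 21.5 and 21.5 CPM (-1.54), with wild-type at 35.2 and 35.9 CPM, and AIF1, a macrophage protein, from 164 and 179.8 CPM to 104 and 100.1 CPM (-0.75). The other 5 B-lineage and 7 myeloid markers were all under 1 CPM in each of the 4 libraries. Of 5 B-lineage markers tested, 3 were called lower and 1 higher, where 27.3% and 22.7% of all genes were. MS4A1 went against the sum, from under the floor in scrambled (0.011 and 0.021 CPM) to 0.307 and 0.33 CPM with shRNA-4057. COL1A1, a collagen, rose from 5.74 and 5.65 CPM to 11.3 and 11.1 CPM (0.97) and PDGFRB fell by 1.57, while COL1A2, COL3A1, EPCAM and KRT19 had no count in the 4 libraries. Their part in the differences described above was not tested.

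The direct contrast with the other hairpin, which uses no control library, called 7817 genes (33.9%), 4080 higher with shRNA-4057 (17.7%) and 3737 lower (16.2%), and 818 by at least 2-fold (3.55%; 2.23% higher and 1.32% lower). For RAG1, DNTT, IGLL1 and KIT the level with shRNA-4057 was further below that with shRNA-4058, by 1.81, 1.33, 1.29 and 1.56 on the log2 scale. EOMES was at 16.4 and 14.9 CPM with shRNA-4058, and its log2 difference between the hairpins was 2.70 (edgeR adjusted p 5.0e-18), and that of GZMK 3.03. Of the cytotoxic list 13 of 17 genes were called higher with shRNA-4057 than with shRNA-4058 and 0 lower, and of the cholesterol list 25 of 27 lower and 0 higher. CD69 did not pass the test between the hairpins (0.03, edgeR adjusted p 0.81), and neither did KLF2 (0.16, edgeR adjusted p 0.076) or CD1C (-0.05). The hairpins also differed in their reduction of USP7, and the part of that difference in these contrasts was not tested.

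The same hairpin in HSB-2, another T-ALL line labelled TAL1+, shares no library with the comparison in Jurkat. The interaction of line and hairpin was called for 10769 genes (46.7%), 3529 of them with a difference of at least 2-fold (15.3%; 8.41% with the higher and 6.89% with the lower log2 effect in Jurkat). USP7 fell by 0.61 on the log2 scale in HSB-2, from 227 and 220.1 CPM to 144 and 149 CPM, and the difference of the effects, Jurkat minus HSB-2, was -0.82 (SE 0.049, edgeR adjusted p 1.7e-12).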

How the data were processed

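Total RNA (RNeasy) was made into stranded, ribosome-depleted libraries (KAPA RNA HyperPrep with RiboErase) and sequenced on a NovaSeq instrument. Per the study's methods the authors mapped read pairs with an in-house pipeline that ran BWA against GRCh37-lite and several transcript databases and kept the best alignment, then deposited raw HTSeq counts per gene (version 0.6.1p1) for all 16 libraries in 1 table. CASAVA and STAR are also named in the submitters' processing notes, and the strand setting of the counting and the annotation release are not given in the sources used here. Pairs that align equally well to similar genes, and overlapping genes, can therefore be miscounted.

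The table of 57820 genes holds Ensembl identifiers only. Symbols were taken from a gene name table (43521 matched) and coordinates and exon overlaps from GENCODE mapped to GRCh37. The 16 libraries were fitted as 8 groups of 2 with edgeR 4.0.16 (R 4.3.3): genes were filtered by filterByExpr (23063 kept), scaled by TMM (factors 0.925 to 1.14 in the 4 libraries) and tested with glmQLFit and glmQLFTest, with Benjamini-Hochberg adjustment over all genes and a threshold of 0.05. The spread was thus shared over all groups (8 residual degrees of freedom, biological coefficient of variation 4.2%). SE was the size of the log2 fold change divided by the square root of F. Levels are TMM-normalized CPM, not scaled for gene length. Replicate libraries differed by more than counting noise (chi-square per degree of freedom 8.16 for shRNA-4057 and 19.9 for scrambled), so none was a copy of another. Whether they were technical repeats cannot be told from this. The fit was tested on simulated data.

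The genes named were USP7; the 15 highest and 15 lowest log2 fold changes among called genes whose mean reached 2 CPM, with 1 direction in every pairing of libraries; and from each of 31 gene lists (620 entries, 586 tested) up to 4 called members with the largest change and at least 1 CPM, with all members of the E-protein target, CD1 and TAL1 complex lists. Every other list member named was chosen after its values were seen. The ranking of highest and lowest left out genes with clone-type, LINC or small-RNA names or no symbol, Y-linked genes and XIST. Many long noncoding RNAs were thus not ranked. The comparison and the lists were chosen with earlier results of these data known. Alternatives were other size factors, DESeq2 1.42.0, other filters and samples in the fit, wild-type as control, a replicate block, an offset for GC content and length (a spline with 5 degrees of freedom each) and leaving out each library. UHRF1, CCL5 and some other list genes were not analysed here, and a few named genes and 1 list are not reported here.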

Additional observations from a re-analysis of the deposited data

Results flagged for a closer look

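The effect of shRNA-4057 against scrambled differed between Jurkat and HSB-2 for 8 of the genes compared, by the interaction term of edgeR's quasi-likelihood test across all genes. The genes compared were USP7, the 4 E-protein targets and the 5 highest and 5 lowest named genes, and a difference of at least 1 on the log2 scale was looked for. Differences are given as Jurkat minus HSB-2. The 10 highest and lowest genes were picked for the size of their effect in Jurkat, which is part of the difference, so a larger effect in Jurkat was favoured by the choice and the test is no independent evidence for them. Neither the cause nor the part of the smaller reduction of USP7 in HSB-2 was tested. Jurkat scrambled cells themselves differed from wild-type, HSB-2 wild-type libraries were not compared, and the part of the control was not tested. Groups of 2 libraries were too small for a check of single libraries that stand apart.

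CD69 moved in opposite directions. In HSB-2 it rose from 26.7 and 25.2 CPM to 109 and 116 CPM (2.12), where it fell in Jurkat, a difference of -3.55 (SE 0.088, edgeR adjusted p 3.7e-19). Against scrambled, EOMES, SH3BP5 and PTPRG rose in both lines and more in Jurkat. In Jurkat each stood lower in scrambled than in wild-type, and the rises against wild-type were 2.16, 1.86 and 2.09. In HSB-2, EOMES went from 2.87 and 3.12 CPM to 5.70 and 5.09 CPM (0.85, edgeR adjusted p 3.5e-08), and the effects differed by 3.76. SH3BP5 went from 62.2 and 64.8 CPM to 272 and 269.8 CPM (2.09), a difference of 2.33. PTPRG went from 7.14 and 6.85 CPM to 11.7 and 11.9 CPM (0.75, edgeR adjusted p 5.0e-07), a difference of 4.03.

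Of the reduced genes, CEBPE fell in both lines, in HSB-2 from 62.7 and 66.3 CPM to 19.8 and 20.4 CPM (-1.68), and the effects differed by -2.59. IGLL1 was at 17.6 and 18.8 CPM in scrambled and 18.6 and 18.4 CPM with shRNA-4057 in HSB-2 (0.02, edgeR adjusted p 0.85), which made a difference of -4.26. TFAP2A was at 28.5 and 28.2 CPM and 26.4 and 26.2 CPM there (-0.11, edgeR adjusted p 0.21), a difference of -4.20. RAG1 was near the floor in HSB-2, at 0.134 and 0.0398 CPM in scrambled and 0.0817 and 0.0579 CPM with shRNA-4057, so a fall there could hardly be measured, and the effects differed by -2.51.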

How the results depend on the processing

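USP7 stayed lower and called under all 14 alternatives, between -1.46 and -1.40 on the log2 scale when 1 library was left out. Between 9765 and 10129 genes were called when 1 library was left out, and between 2466 and 2649 by at least 2-fold. A group left with 1 library was assumed to vary like the other groups. The number of genes called with at least a 2-fold change was 1832 with at least 10 counts required in each of the 4 libraries, where fewer genes were tested (17866), and 1429 against wild-type; the cause of the latter was not tested. Other scalings or tools called 11535 genes (size factors of DESeq2 in edgeR) and 11225 (DESeq2). The offset for GC content and transcript length raised the share called higher from 45.4% to 55.7% of calls and the median of all genes by 0.08.

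Of 2168 values of named genes under the alternatives, 44 lost and 4 gained their call with the direction kept. Another 11 turned direction, whether called or not. Against wild-type, the log2 fold change was 0.045 for CDKN1A, 1.05 for EGR1, -0.11 for GATA3, -0.12 for ID1, 0.027 for SIN3A, -0.062 for SLC7A11, -0.12 for TAL1 and 0.074 for TCF3. Against both controls together it was 0.058 for EGR1 and -0.0040 for GATA3, and with the GC and length offset 0.00076 for HDAC1. The cause was not tested. TCF3 was called lower with that offset (-0.14) and without Jurkat shRNA-4057 replicate 1. Of 434 list counts, 12 differed by more than 1.5 times, of which 8 were of lists of other cell types.

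With the replicate number as a block, 11336 genes were called, 5132 higher and 6204 lower, and GATA3 and MDM2 lost their call (edgeR adjusted p of 0.053 and 0.061). Deviations of the shRNA-4057 libraries ran opposite to those of same-numbered libraries (r = -0.19 with scrambled, -0.28 with wild-type and -0.32 with shRNA-4058 over 12088 genes). Whether libraries of different groups shared a batch under another numbering cannot be told from these values. Depth limits genes near the floor of 3 counts, such as SPI1, FASLG, KLRD1 and GNLY.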
